A study of Xenopus tropicalis with 12 samples.

Results

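Embryos of the frog Xenopus tropicalis exposed to naphthenic acid mixture S2 were compared directly with embryos exposed to mixture S1. The comparison took the 4 arrays labelled S2 and the 4 labelled S1, 8 of the 12 arrays in the series, and left out the 4 arrays of control embryos. Each array measured total RNA of whole embryos, 3 days post fertilization, in a single colour. S1 and S2 were separate batches of the same catalogue product of naphthenic acids. The composition of each batch, the dose and the length of exposure are not given in the sources used here, nor is how many embryos or clutches went into an array. The p-values below therefore measure the spread between these arrays, which may be partly technical.

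Naphthenic acids are petroleum carboxylic acids, many of them cyclic, that reach water from oil production and are toxic to early stages of fish and amphibians. Because every batch is a blend whose members vary with the source, a response to one batch need not be the response to another. Vertebrates commonly meet foreign organic acids with cytochrome P450 enzymes that oxidise them, enzymes that conjugate them and membrane pumps that export them. The direct comparison asks which transcripts differ between embryos exposed to the 2 batches, and how large a difference the 8 arrays could still contain.

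Of 32899 probes, the 28182 that read well above background on 4 or more of these 8 arrays were tested. These carried 4279 distinct named genes, and 81.1% of the tested probes matched no gene entry and are counted but not named. Of 132 measured members of 15 cell type lists, from liver and lens to muscle and pigment cells, 123 were well above background on all 8 arrays. So were 26255 of all 28182 tested probes, a like share. Measured members had already passed the filter, so the count is a description. In whole embryos, fewer cells of a type and less RNA per cell cannot be told apart. The arrays lay on 3 slides, with S1-1, S2-1 and S2-2 on slide 1, S1-2, S1-3 and S2-3 on slide 2, and S1-4 and S2-4 on slide 3. The 75th percentile of the signal, by which each array was scaled, was 537, 473, 422 and 261 on the S1 arrays and 517, 481, 675 and 549 on the S2 arrays. S1-4 was thus the dimmest array. Before scaling, mean log2 brightness was 6.47 ± 0.33 (SD, n = 4) in S1 and 6.84 ± 0.25 in S2, a difference of 0.37 that did not pass a two-sided exact permutation test (p = 0.114, 0.152 adjusted over 4 such tests, with 0.0286 the smallest p the design allows). Across probes, arrays of the same mixture correlated at a median r of 0.986 and arrays of different mixtures at 0.985. Arrays on the same slide correlated at a median r of 0.989 and arrays on different slides at 0.985, a wider gap than that by mixture.

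No probe differed between S2 and S1 at an adjusted p under 0.05 (0 of 28182, 0%; limma with Benjamini-Hochberg adjustment, smallest adjusted p = 0.183). At an unadjusted p under 0.05, 2102 probes (7.46%) differed, 807 higher and 1295 lower in S2. This split leaned to lower values under most settings tried, but not under all. With slide as a block it was 848 higher and 1387 lower. It was 1019 higher and 1017 lower after quantile normalization, and 1025 and 1000 in the authors' log2 table, which is quantile-normalized as well. Both give every array the same distribution and so cannot test this lean. With array brightness as a covariate the split was 1161 and 805. A background correction by normexp with outlying local backgrounds replaced gave 550 and 2375, and without S1-4 the split was 1361 and 1128. On 580 probes (2.06%) the 4 S2 arrays all lay above the 4 S1 arrays, and on 772 (2.74%) they all lay below. The median difference over all probes was -0.02 on the log2 scale, and single probes ranged from -2.67 to 2.60. The median difference ran with brightness, from -0.10 in the dimmest to 0.03 in the brightest of 4 equal classes of probes by mean signal. After quantile normalization it was 0.00 in both, but that method gives every array the same distribution and so cannot test the offset. With slide as a block the median difference ran from -0.08 in the dimmest to 0.03 in the brightest class. With array brightness as a covariate the order was not kept, at 0.035 in the dimmest and 0.004 in the brightest class. Under normexp with outlying local backgrounds replaced it ran from -0.28 to 0.07. The cause of the offset was not tested.

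**Figure D1:**
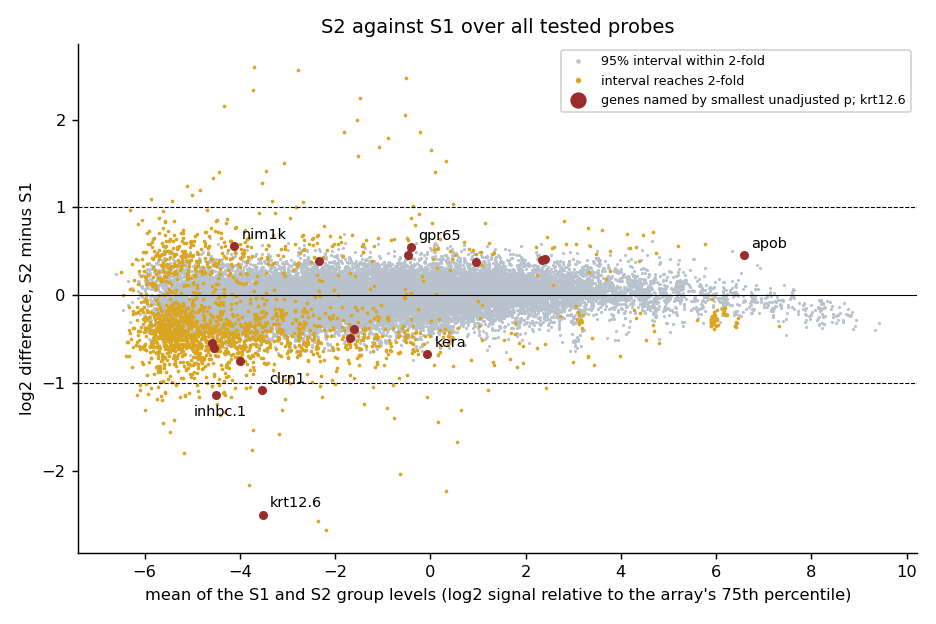
Log2 difference between mixtures, S2 minus S1, against the mean of the group levels, 1 point per tested probe. Grey points have a 95% interval inside 2-fold and yellow points have one that reaches 2-fold. Red points are the 8 named genes with the smallest unadjusted p on each side, plus krt12.6. Dashed lines mark 2-fold. The probes thin out beyond the dashed lines, and the yellow points crowd at the dim end.

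The intervals bound what the arrays could have missed. For 92.7% of the probes (26120) the 95% interval lay wholly inside a 2-fold difference in either direction, and for 68.4% (19266) inside a 1.5-fold difference. Under normexp on the local backgrounds as measured these shares were 58.6% and 25.4%. The median interval reached 0.32 to either side of the estimate on the log2 scale. Taking for each probe the far end of its interval, the median was 1.38-fold, the 90th percentile 1.87-fold and the 99th percentile 3.28-fold. A 2-fold difference lay inside the interval of 2062 probes, on the higher side for 627 and on the lower side for 1638 (some on both). For 158 probes a 4-fold difference was still inside. No probe's interval lay wholly beyond 2-fold in either direction. Among the named genes, 4043 of 4279 (94.5%) had an interval inside 2-fold and 3108 (72.6%) inside 1.5-fold. These intervals are single-probe intervals, not adjusted for the number of probes, so some of them will miss the true difference.

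The reach of the intervals went with signal strength. In the dimmest of the 4 signal classes 79.3% of the intervals lay inside 2-fold, against 95.8%, 97.8% and 97.7% in the brighter ones. Among the 1927 tested probes that were not well above background on all 8 arrays, 926 (48.1%) could still hold a 2-fold difference, against 1136 (4.33%) of the 26255 that were.

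**Figure D2:**
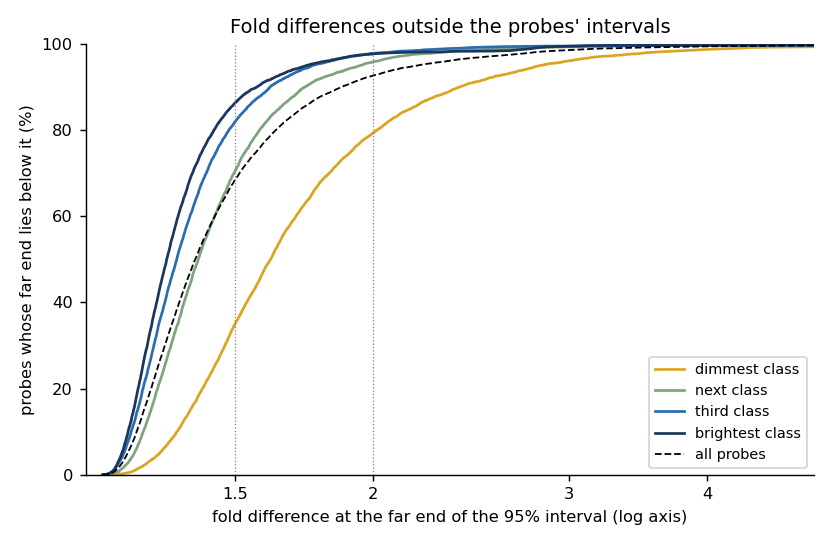
Percent of tested probes whose 95% interval ends closer to 0 than the fold difference on the log-scaled horizontal axis, for each of the 4 equal classes of probes by mean signal and for all probes (dashed). Dotted lines mark 1.5-fold and 2-fold. At 2-fold the dimmest class stands at 79.3% and the brightest at 97.7%.

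Among genes with a symbol, the 8 with the smallest unadjusted p on each side were taken for a closer view, with no call on any of them. The 4 arrays of S2 did not overlap the 4 of S1 for any of these 16, which their choice by p favours. Over all probes the S2 arrays lay wholly above for 2.06% and wholly below for 2.74%. Of the 16, the interval of 13 lay inside 2-fold, beside 92.7% of all probes. Levels here and below are log2 signals relative to the 75th percentile of the array, given for replicates 1 to 4, and they compare arrays within a gene, not genes with each other.

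The lowest p of a named gene belonged to inhbc.1, one of the frog copies of the inhibin beta C subunit gene, whose products form dimeric ligands of the activin and inhibin family. Its probe read -3.94, -4.29, -3.89 and -3.66 on the S1 arrays and -4.99, -5.07, -5.38 and -4.86 on the S2 arrays. Every S2 array lay below every S1 array, and the control mean of -3.09 ± 0.57 (SD, n = 4) was above both. The difference was -1.13 (95% interval -1.50 to -0.77), a signal 2.19-fold higher in S1 than in S2 (adjusted p = 0.312, limma). Within slides 1, 2 and 3 it was -1.09, -1.30 and -1.19, and over the other settings tried it ran from -1.25 to -0.45. Its copy inhbc.2 read -1.80, -1.80, -1.72 and -2.13 on the S1 arrays and -1.58, -2.0, -1.80 and -1.25 on the S2 arrays. The groups overlapped for inhbc.2, and its difference was 0.20 (95% interval -0.18 to 0.59). smad4.1, which encodes the shared partner of receptor-activated SMAD proteins downstream of such ligands, was also among the 8, at -0.54 (95% interval -0.79 to -0.29) (adjusted p = 0.505) on a probe that can cross-hybridise.

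clrn1, kera and cldn8.3 were also on the lower side. clrn1 encodes clarin 1, a membrane protein of hair cells and photoreceptors in mammals. It read -3.0, -3.40, -2.53 and -3.09 in S1 and -3.68, -4.05, -4.03 and -4.58 in S2, so that the highest S2 array, S2-1, lay below the lowest S1 array, S1-2. Its difference was -1.08 (95% interval -1.59 to -0.57), or 2.12-fold higher in S1 (adjusted p = 0.505), and controls (-3.18 ± 0.61) overlapped the arrays of both mixtures. kera, which encodes keratocan, a proteoglycan of the cornea, read 0.06, 0.61, 0.24 and 0.18 in S1 and -0.27, -0.63, -0.37 and -0.32 in S2. All S2 values were negative and all S1 values positive, and the control mean of 0.28 ± 0.31 was close to that of S1. The difference for kera was -0.67 (95% interval -0.99 to -0.35) (adjusted p = 0.505). cldn8.3, a claudin of tight junctions, gave -0.74 (95% interval -1.10 to -0.38) on a dim probe. By mean signal, the probes of inhbc.1, smad4.1, clrn1, cldn8.3 and tmsb10 all lay in the dimmest of the 4 classes. On the higher side nim1k did as well. The median difference of that class was -0.10.

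The remaining genes on the lower side were hexim1, sdr42e1 and tmsb10. hexim1 encodes an inhibitor of the kinase complex that releases paused RNA polymerase II. Its probe read -1.38, -1.38, -1.50 and -1.41 on the S1 arrays and -1.84, -1.75, -1.84 and -1.77 on the S2 arrays. The arrays of each mixture lay close together, and controls (-1.89 ± 0.14) stood near S2, with S1 above both. Its difference of -0.38 (95% interval -0.57 to -0.19), 1.30-fold higher in S1 (adjusted p = 0.549), lay inside a 1.5-fold bound. sdr42e1, a short-chain dehydrogenase gene, gave -0.48 (95% interval -0.72 to -0.24), and tmsb10, which encodes an actin-binding thymosin, -0.61 (95% interval -0.93 to -0.28). The probe of tmsb10 can cross-hybridise.

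On the higher side, gpr65 had the smallest p. It encodes a G protein-coupled receptor that senses protons in mammals, and its probe can cross-hybridise. The probe read -0.60, -0.68, -0.79 and -0.68 on the S1 arrays and -0.33, -0.09, -0.11 and -0.04 on the S2 arrays, while controls stood at -0.17 ± 0.18. S2 and control arrays overlapped and the S1 arrays lay below both. The difference was 0.55 (95% interval 0.32 to 0.77), 1.46-fold higher in S2 (adjusted p = 0.489). nim1k, a serine/threonine kinase gene, read -4.44, -4.54, -4.41 and -4.18 in S1 and -3.95, -3.90, -3.85 and -3.67 in S2. The control mean of -4.02 ± 0.19 was between the groups, and the difference was 0.56 (95% interval 0.30 to 0.81). That of nim1k turned to -0.31 and -0.05 under the 2 normexp background corrections, so its direction depended on the processing. These settings also used the median signal and an offset of 50, and which change turned the sign was not tested. jakmip2, a gene of a microtubule-binding protein of neurons, read 0.85, 0.78, 0.70 and 0.71 in S1 and 1.03, 1.21, 1.16 and 1.15 in S2. The difference of 0.38 (95% interval 0.17 to 0.58) (adjusted p = 0.555) lay inside 1.5-fold.

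The others on the higher side were apob, ppargc1b, trpm6, fam131a and ccdc77. apob encodes apolipoprotein B, the backbone protein of lipoproteins made by liver, gut and yolk tissue. Its bright probe read 6.55, 6.45, 6.27 and 6.17 on the S1 arrays and 6.82, 6.92, 6.82 and 6.71 on the S2 arrays. The lowest S2 array, S2-4, lay above the highest S1 array, S1-1. The control mean (6.08 ± 0.41) was lower, but the control arrays were more scattered and overlapped those of S1. The difference was 0.46 (95% interval 0.20 to 0.71), 1.37-fold higher in S2 with an interval of 1.15 to 1.64 (adjusted p = 0.555). ppargc1b, a coactivator gene of mitochondrial metabolism, gave 0.41 (95% interval 0.17 to 0.64) and trpm6, a magnesium channel gene, 0.46 (95% interval 0.18 to 0.73). fam131a stood at 0.39 (95% interval 0.18 to 0.61), which turned to -0.11 under normexp on the local backgrounds as measured. ccdc77 stood at 0.40 (95% interval 0.17 to 0.64) on a probe that can cross-hybridise.

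**Figure D3:**
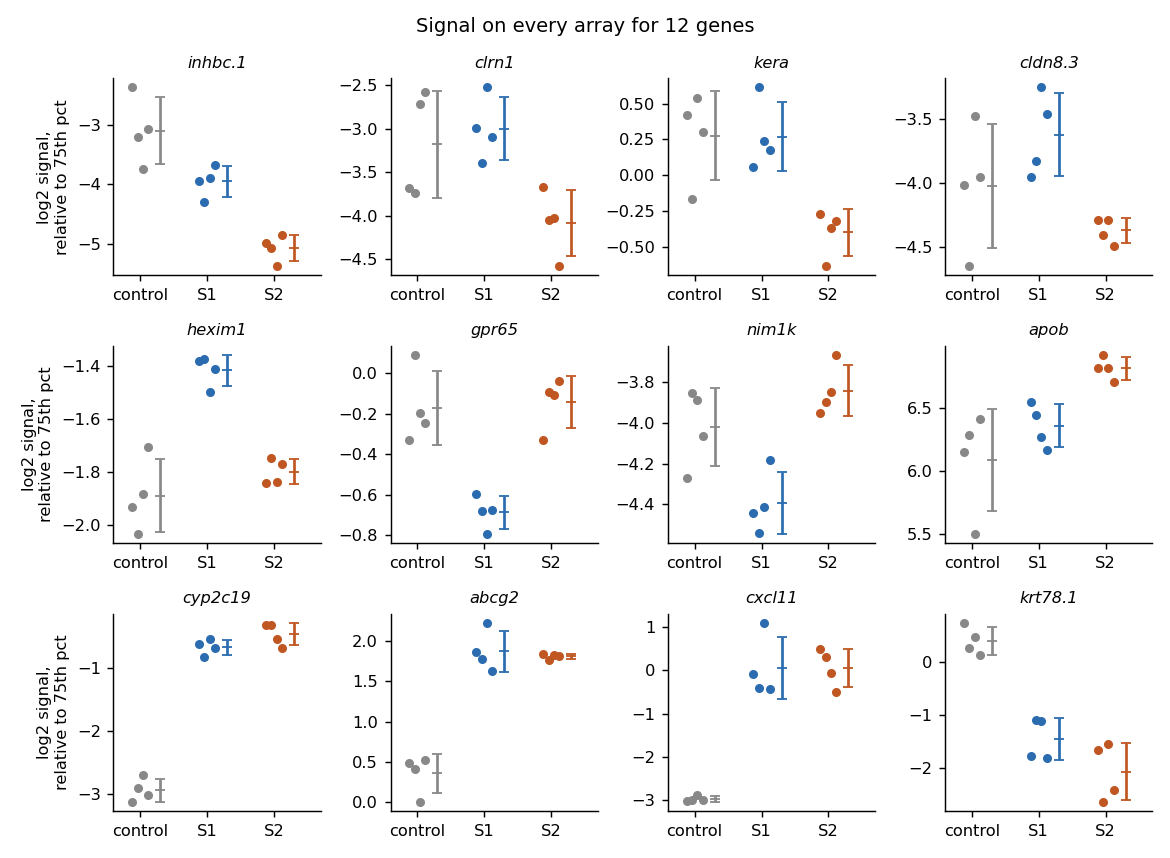
Log2 signal relative to the array's 75th percentile on every array for 12 genes, with control arrays in grey, S1 in blue and S2 in orange (4 arrays each). The mean and SD of each group stand to the right of its points. S1 and S2 do not overlap for inhbc.1, clrn1, kera, cldn8.3, hexim1, gpr65, nim1k and apob, and they overlap for cyp2c19, abcg2, cxcl11 and krt78.1, where both mixtures stand apart from control.

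The genes described earlier for either mixture against control were compared between the mixtures next. With family copies matched, the 57 listed names gave 65 measured genes, so some of the 65 entered as copies by symbol alone. The listed names were chosen on these same arrays, so the counts are a description. None of the 65 was called between the mixtures. The interval of 54 of the 65 (83.1%, against 92.7% of all probes) lay inside 2-fold. That of 28 of the 65 lay inside 1.5-fold, against 68.4% of all probes. At an unadjusted p under 0.05, 7 were higher and 11 lower in S2 (18 of the 65, against 7.46% of all probes). The S2 arrays all lay above the S1 arrays for 6 of the 65 and all below for 3. Over all probes these shares were 2.06% and 2.74%. The median difference of the 65 was 0.01. The 11 with a 2-fold difference still inside their interval were acod1la, atp13a-like, bfsp1, bfsp2, cryga.1, cryga.7, cxcl10, inhbc.1, krt78.1, slc49a4 and xa-1.

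**Figure D4:**
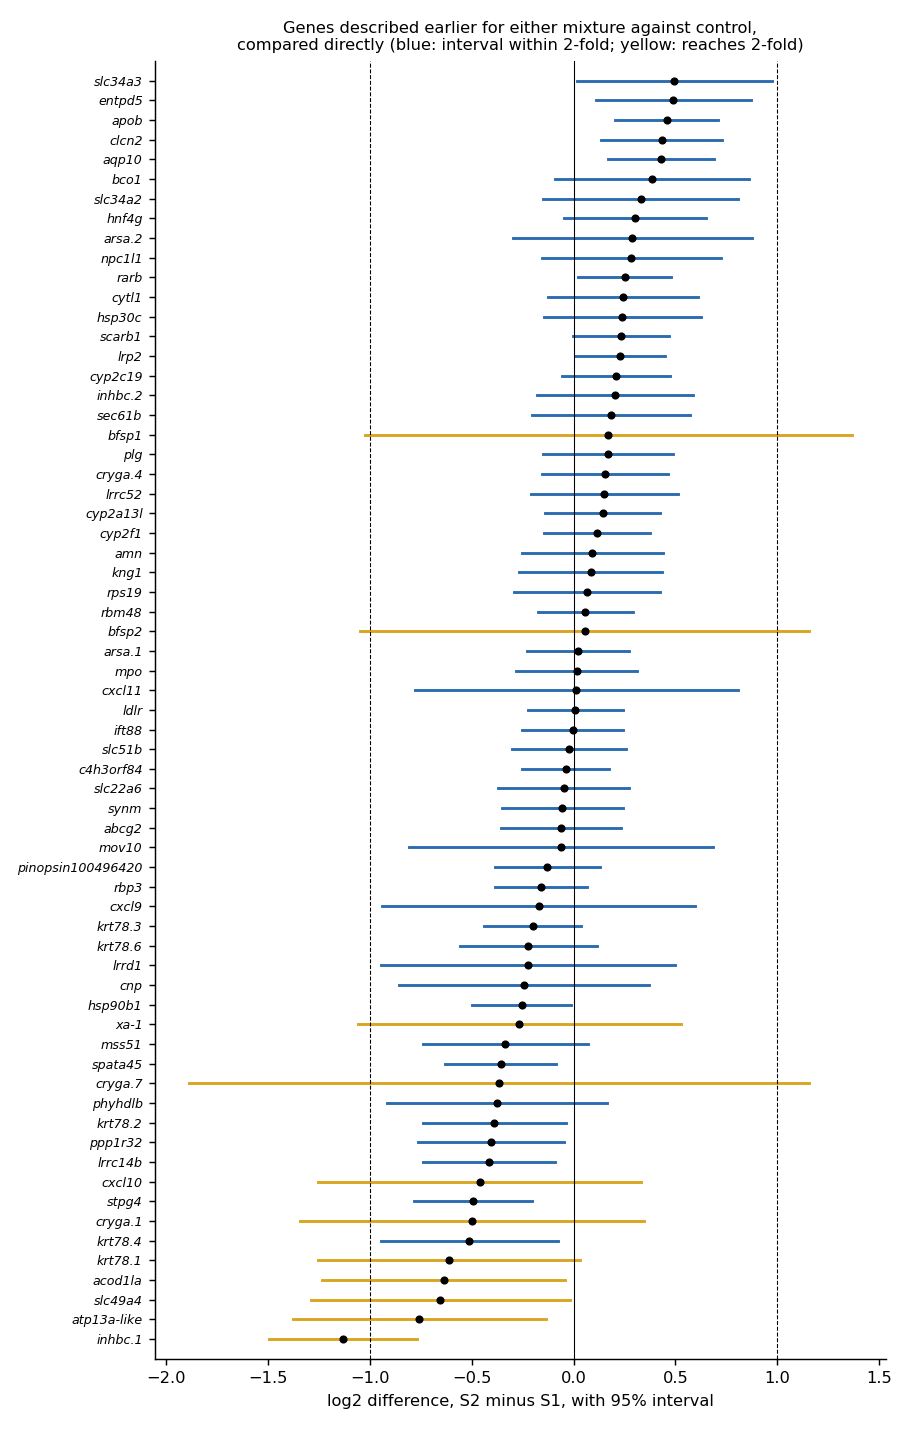
Log2 difference between the mixtures, S2 minus S1, with its 95% interval, in order of the difference. The 65 genes are those described earlier for either mixture against control, together with family copies matched by symbol. Blue intervals lie inside 2-fold (dashed lines) and yellow ones reach it. inhbc.1 stands at the bottom at -1.13 and slc34a3 at the top at 0.50.

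For the enzymes that oxidise foreign compounds the bounds were tight. cyp2c19 read -0.63, -0.83, -0.55 and -0.68 on the S1 arrays and -0.32, -0.32, -0.53 and -0.68 on the S2 arrays, against -2.94 ± 0.18 in controls. The arrays of the mixtures overlapped and all 8 lay above the controls. Its difference of 0.21 (95% interval -0.06 to 0.48) bounds S2 at 1.39-fold of S1 at most on the higher side. cyp2f1 and cyp2a13l, whose probes can cross-hybridise, gave 0.12 (95% interval -0.15 to 0.38) and 0.14 (95% interval -0.14 to 0.42). The 3 genes had intervals inside 1.5-fold, and their estimates stayed positive under all 5 scalings and corrections tried. The probe of rbm48, an RNA-binding protein gene, can cross-hybridise as well and gave 0.06 (95% interval -0.18 to 0.29). Its mean level was 5.23 in S1 and 5.29 in S2. Whether the probes of rbm48, cyp2f1 and cyp2a13l read a shared target was not tested.

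Among pumps and carriers of organic anions, abcg2, slc51b and slc22a6 had intervals inside 1.5-fold, while slc22a8 at -0.60 (95% interval -1.24 to 0.03) did not exclude 2-fold. slc22a8 was not among the 65 and was named as the farthest member of the transporter list. Its dim probe was well above background on 3 of 4 S2 arrays. abcg2, an efflux pump gene, read 1.87, 1.78, 2.23 and 1.63 in S1 and 1.84, 1.77, 1.83 and 1.81 in S2, where controls stood at 0.36 ± 0.24. The S2 arrays differed among themselves by less than the S1 arrays and lay within their range. The difference was -0.06 (95% interval -0.36 to 0.23), so that neither mixture exceeded the other by more than 1.28-fold within this interval. slc51b, a bile acid carrier gene, gave -0.02 (95% interval -0.30 to 0.26). slc22a6, an organic anion transporter gene of the kidney, gave -0.05 (95% interval -0.37 to 0.27) on a dim probe.

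cxcl9, cxcl10 and cxcl11 had wider intervals. cxcl11, an interferon-inducible chemokine in mammals, read -0.09, -0.41, 1.09 and -0.42 on the S1 arrays and 0.49, 0.29, -0.05 and -0.51 on the S2 arrays, against -2.97 ± 0.07 in controls. S1-3 was the highest array and the other 7 overlapped freely. The difference of 0.01 was near 0, yet its interval ran from -0.78 to 0.81, that is from 1.72-fold higher in S1 to 1.75-fold higher in S2. cxcl9 gave -0.17 (95% interval -0.94 to 0.60). cxcl10 was well above background on 3 of 4 S1 arrays and 2 of 4 S2 arrays, with a difference of -0.46 (95% interval -1.25 to 0.33). cxcl8, a chemokine gene that was not among the 65, was bounded inside 1.5-fold at -0.08 (95% interval -0.58 to 0.41). mpo, the myeloperoxidase gene of granulocytes, gave 0.02 (95% interval -0.28 to 0.31).

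Of the lipid uptake genes, ldlr, lrp2 and scarb1 had intervals inside 1.5-fold and npc1l1 did not. ldlr, the low-density lipoprotein receptor gene, read 2.45, 2.38, 2.51 and 2.73 in S1 and 2.59, 2.55, 2.45 and 2.51 in S2, with a difference of 0.01 (95% interval -0.23 to 0.24). lrp2, which encodes megalin, an endocytic receptor of kidney and gut, gave 0.23 (95% interval 0.01 to 0.45), and scarb1, a lipoprotein receptor gene, 0.23 (95% interval 0.00 to 0.47). The S2 arrays of both genes all lay above the S1 arrays, as they did for 2.06% of all probes. npc1l1, a sterol uptake gene, gave 0.28 (95% interval -0.16 to 0.72) and had 1 high S1 array (S1-1 at 0.29, the other S1 arrays at -0.57 to -0.51).

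The transport genes had estimates of both signs. slc34a3, a phosphate cotransporter gene of kidney and gut, read 0.74, 0.40, 0.08 and -0.31 in S1 and 0.95, 0.76, 0.66 and 0.53 in S2, against 1.16 ± 0.21 in controls. The lowest S1 array was S1-4 and the groups overlapped. Its difference was 0.50 (95% interval 0.02 to 0.97). clcn2, a chloride channel gene, read 0.35, 0.29, -0.12 and -0.02 in S1 and 0.66, 0.57, 0.59 and 0.40 in S2, with a difference of 0.43 (95% interval 0.14 to 0.73) (adjusted p = 0.583). The S2 arrays of clcn2 all lay between S1 and the control mean of 0.91. slc49a4, another carrier gene, had the opposite sign, with 0.01, -0.95, 0.37 and -0.84 in S1 and -0.80, -1.07, -1.16 and -1.0 in S2 against 0.12 ± 0.22 in controls. aqp10, an aquaglyceroporin gene, gave 0.43 (95% interval 0.17 to 0.69) and turned to -0.10 under normexp on the backgrounds as measured.

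The keratin 78 copies of the epidermis all had negative estimates. krt78.1 read -1.77, -1.10, -1.12 and -1.81 on the S1 arrays and -1.65, -2.63, -1.54 and -2.41 on the S2 arrays, against 0.40 ± 0.26 in controls. S2-2 and S2-4 were the lowest and the groups overlapped. Its difference was -0.61 (95% interval -1.25 to 0.03), with up to 2.39-fold higher in S1 still inside the interval (adjusted p = 0.672). krt78.2 gave -0.39 (95% interval -0.74 to -0.04), krt78.4 -0.51 (95% interval -0.95 to -0.08), krt78.6 -0.22 (95% interval -0.56 to 0.12) and krt78.3 -0.20 (95% interval -0.44 to 0.04). The dim probe of krt78.4 was well above background on 2 of 4 S2 arrays. The sign held for all 5 measured copies under each of the 5 scalings and corrections tried, but none was called and none separated the groups. Such copies can share target sequence and are not independent of each other.

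The lens genes were poorly bounded. bfsp1, which encodes the beaded filament protein filensin, read -2.65, -2.69, -1.99 and -2.35 in S1 and -3.01, -3.54, -1.57 and -0.87 in S2, against -0.67 ± 0.35 in controls. S2-3 and S2-4 stood high and S2-1 and S2-2 low, and the former lie on slides 2 and 3, the latter on slide 1. The difference was 0.17 (95% interval -1.03 to 1.37), and within slides it was -0.63, 0.77 and 1.48. bfsp2 gave 0.06 (95% interval -1.05 to 1.16), cryga.7 -0.37 (95% interval -1.89 to 1.16) and cryga.1 -0.50 (95% interval -1.34 to 0.35). Of the 5 lens genes in the group, the interval of 1, cryga.4, lay inside 2-fold.

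The estimates for the cartilage genes cytl1 and fgfbp2 had opposite signs. Of them, fgfbp2 was not among the 65 and was named as the farthest member of the cartilage list. cytl1, a secreted factor of cartilage, read -0.82, -0.38, -0.47 and -0.89 in S1 and -0.48, -0.11, -0.32 and -0.67 in S2, against 0.64 ± 0.14 in controls, and its difference was 0.24 (95% interval -0.12 to 0.61). fgfbp2, which encodes a carrier of fibroblast growth factors, read 0.14, 0.44, 0.66 and 0.78 in S1 and 0.04, -0.36, -0.13 and 0.14 in S2. The S2 arrays of fgfbp2 all lay below the S1 arrays, and controls (0.55 ± 0.20) stood with S1. Its difference was -0.58 (95% interval -0.96 to -0.21) (adjusted p = 0.573).

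Retinoid, liver and stress genes completed the group. bco1, the carotene-cleaving enzyme gene that supplies retinal, gave 0.39 (95% interval -0.09 to 0.86), and rarb, a retinoic acid receptor gene, 0.25 (95% interval 0.02 to 0.48). plg and kng1, which encode the plasma proteins plasminogen and kininogen, gave 0.17 (95% interval -0.15 to 0.49) and 0.08 (95% interval -0.27 to 0.44). hsp90b1, which encodes an endoplasmic reticulum chaperone, gave -0.25 (95% interval -0.50 to -0.01) and hsp30c, a small heat shock protein gene, 0.24 (95% interval -0.15 to 0.63). entpd5, a nucleotide-hydrolysing enzyme of the endoplasmic reticulum, gave 0.49 (95% interval 0.11 to 0.87), and the cilium-linked stpg4 and ppp1r32 were at -0.49 (95% interval -0.78 to -0.20) and -0.40 (95% interval -0.76 to -0.05). Of these, bco1, entpd5 and hsp30c had intervals that reached past 1.5-fold on the higher side, and stpg4 and ppp1r32 on the lower side. None of them was called.

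The other genes of the group were bounded to different degrees. rbp3, a retinoid carrier gene of the retina, gave -0.16 (95% interval -0.38 to 0.07) and the pinopsin gene of the pineal organ -0.13 (95% interval -0.39 to 0.13). In muscle, mss51 gave -0.33 (95% interval -0.74 to 0.07) and synm, an intermediate filament gene, -0.05 (95% interval -0.35 to 0.24). The cilium transport gene ift88 stood at 0.00 (95% interval -0.25 to 0.24) and c4h3orf84 at -0.04 (95% interval -0.25 to 0.18), both inside 1.5-fold. rps19, a ribosomal protein gene, gave 0.07 (95% interval -0.29 to 0.43), sec61b, of the protein channel of the endoplasmic reticulum, 0.18 (95% interval -0.21 to 0.57), and hnf4g, a nuclear receptor gene, 0.30 (95% interval -0.05 to 0.65). amn, which encodes the partner of the vitamin B12 receptor, gave 0.09 (95% interval -0.26 to 0.44), and the phosphate transporter gene slc34a2 0.33 (95% interval -0.15 to 0.81). The sulfatase gene arsa.2 gave 0.29 (95% interval -0.30 to 0.87) and its copy arsa.1 0.02 (95% interval -0.23 to 0.27). The estimates of lrrc14b, spata45 and slc49a4 were -0.42 (95% interval -0.74 to -0.09), -0.36 (95% interval -0.63 to -0.08) and -0.65 (95% interval -1.29 to -0.02). These lay below 0 by their own unadjusted intervals, as did acod1la, an inflammation-linked gene, at -0.64 (95% interval -1.23 to -0.04) and atp13a-like at -0.76 (95% interval -1.38 to -0.14). lrrc52, phyhdlb, xa-1, mov10, cnp and lrrd1 had intervals that held 0, with estimates of 0.15, -0.38, -0.27, -0.06, -0.24 and -0.22.

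No member of a gene list passed the test. Lists are described by counts and medians, and no list was tested as a whole. The 35 pathway and cell type lists held 247 distinct measured genes, of which 0 were called, and 14 were higher and 10 lower at an unadjusted p under 0.05 (9.72%, against 7.46% of all probes). The interval of 227 of them (91.9%) lay inside 2-fold and that of 156 (63.2%) inside 1.5-fold. Over the 28 lists with 5 or more measured genes the median difference ran from -0.27 to 0.15, beside -0.02 over all probes.

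Among the lists with 5 or more measured genes, the highest medians were those of lens, bile acid and liver genes. The 12 liver markers had a median of 0.14, with apob highest at 0.46 and alb, the albumin gene, lowest at -0.32, and all 12 intervals lay inside 2-fold. By slide their median was 0.03, 0.04 and 0.55, so it stood apart from 0 mainly between S1-4 and S2-4 on slide 3. Among the 7 bile acid and steroid genes the median was 0.15. cyp7a1, the rate-limiting enzyme gene of bile acid synthesis, read 3.04, 2.47, 2.33 and 2.40 in S1 and 3.07, 3.44, 3.41 and 2.65 in S2. The 2 highest arrays, S2-2 and S2-3, were S2 arrays, but S1-1 overlapped the S2 range. Its difference was 0.58 (95% interval 0.09 to 1.07) (adjusted p = 0.658), and a 2-fold difference stayed inside the interval. The 13 lipoprotein genes had a median of 0.09 and intervals inside 2-fold throughout. The median of the 7 lens genes was 0.15 but was -0.15, 0.37 and 0.85 within slides 1, 2 and 3, and -0.14 without slide 3.

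Among the same lists, the lowest medians were those of epidermis and inflammation. The 14 epidermal genes had a median of -0.27, which stayed between -0.36 and -0.18 over the settings tried, and the interval of 10 lay inside 2-fold. By slide the median was -0.10, -0.35 and -0.04, so it stood apart from 0 mainly on slide 2. atp6v1g3, a proton pump subunit gene of ionocytes, stood at -0.59 (95% interval -1.81 to 0.63), while krt7, a keratin of simple epithelia, stood at 0.36 (95% interval -0.84 to 1.56). The 8 chemokine and inflammation genes had a median of -0.20, with nos2, the inducible nitric oxide synthase gene, at -0.41 (95% interval -0.94 to 0.12) and il1b at -0.24 (95% interval -0.79 to 0.31). By slide their median was 0.31, -0.32 and -0.26, so slide 1 ran the other way. The 7 interferon response genes had a median of -0.11 and their widest member was rsad2, an antiviral gene, at -0.71 (95% interval -1.92 to 0.49). The 8 myeloid and lymphoid markers stood at -0.16, with csf3r, a granulocyte growth factor receptor gene, at -0.49 (95% interval -0.97 to -0.02). The dim probe of csf3r was well above background on 3 of 4 S2 arrays. Within slides 1, 2 and 3 its difference was 0.23, -1.16 and -0.62.

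The medians of several other pathways follow. The 6 cytochrome P450 genes of families 2 to 4 stood at 0.13 with all intervals inside 2-fold, and the 10 drug and bile acid transporters at -0.02, where slc22a8 was lowest at -0.60 (95% interval -1.24 to 0.03). The 11 genes of fatty acid oxidation stood at 0.06, with ehhadh, an enzyme of peroxisomal oxidation, highest at 0.37 (95% interval -0.05 to 0.80). The 7 sterol synthesis genes stood at 0.01, the 9 cell cycle genes at -0.06 with ccnd2 lowest at -0.51 (95% interval -1.04 to 0.02), and the 8 endoplasmic reticulum stress genes at -0.08 with atf6 highest at 0.41 (95% interval 0.06 to 0.77). The 12 kidney markers stood at 0.09 and the 8 neuron markers at 0.08. Among the latter nefh, a neurofilament gene, gave 0.38 (95% interval 0.09 to 0.67), with no overlap of the groups.

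In most of the remaining lists the member farthest from 0 was as follows. Among tissue markers, gucy2d, a guanylate cyclase gene of photoreceptors, stood at 0.63 (95% interval -0.03 to 1.29) and pdx1, a transcription factor gene of the pancreas, at 0.49 (95% interval 0.14 to 0.85). The estimate for pdx1 turned to -0.36 and -0.19 under the 2 normexp corrections. epb42, a membrane protein gene of red blood cells, stood at -0.39 (95% interval -0.67 to -0.12), erg, an endothelial transcription factor gene, at -0.34 (95% interval -0.75 to 0.07), slc24a5, of pigment granules, at -0.14 (95% interval -0.52 to 0.23), and gh1, the growth hormone gene, at -0.18 (95% interval -0.71 to 0.35). The probe of pdx1 was well above background on 3 of 4 S1 arrays. Among these tissue markers the groups did not overlap for epb42 alone. Among regulators, ahr, the receptor of many planar foreign compounds, stood at 0.21 (95% interval -0.10 to 0.53), dio2, which activates thyroid hormone, at 0.12 (95% interval -0.09 to 0.32), srebf1, a regulator of lipid synthesis, at 0.20 (95% interval -0.05 to 0.45), and rxrg, a retinoid receptor gene, at -0.54 (95% interval -1.20 to 0.12). For rxrg S1-3 was the highest array, at -1.14, and the other 7 lay between -2.77 and -2.21. Among enzymes, nat8.9, an acetyltransferase gene, stood at 0.56 (95% interval 0.10 to 1.02) and turned to -0.32 and -0.10 under the normexp corrections. cyp4v2.1 stood at 0.31 (95% interval -0.10 to 0.73), gpx1, a glutathione peroxidase gene, at -0.10 (95% interval -0.38 to 0.19), pdk1 at 0.08 (95% interval -0.12 to 0.29) and ndufs4, of mitochondrial complex I, at 0.17 (95% interval -0.10 to 0.43). That probe of ndufs4 can cross-hybridise. The other probe of ndufs4, not marked as cross-hybridising, disagreed in sign, at -0.17 (95% interval -0.46 to 0.11).

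**Figure D5:**
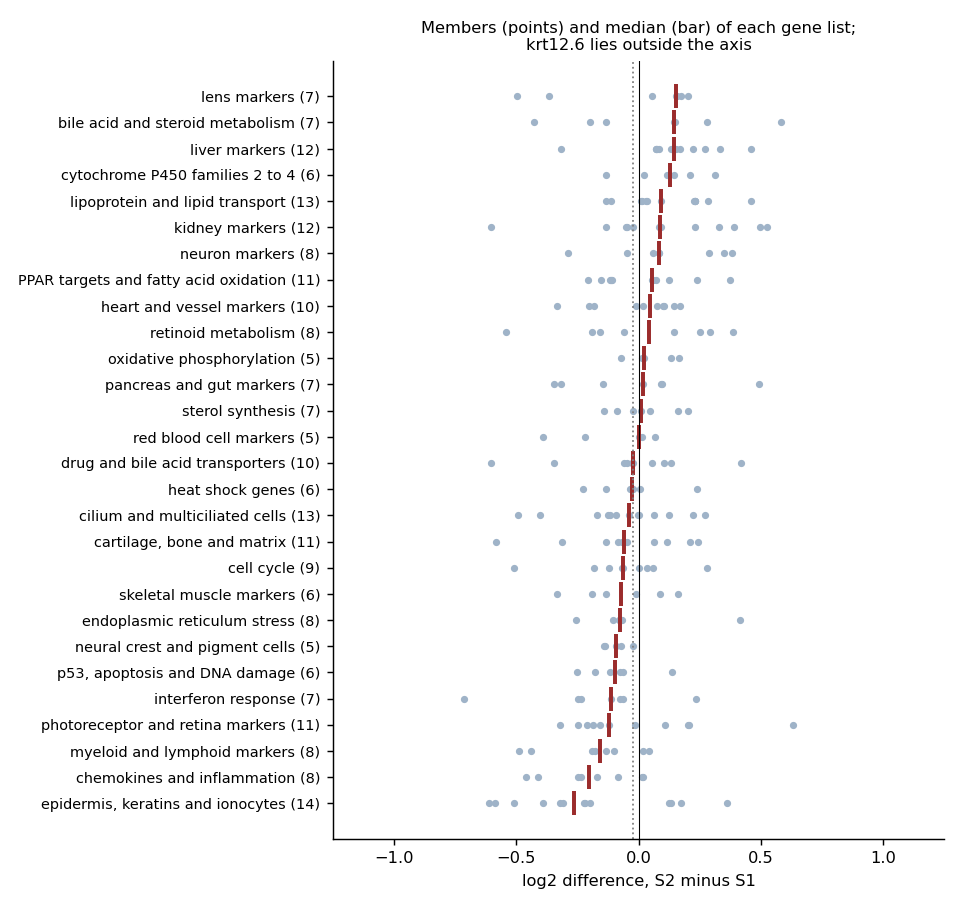
Log2 difference, S2 minus S1, of each measured member (points) and its median (bar) for the 28 gene lists with 5 or more measured genes, the number measured in brackets. The solid line marks 0 and the dotted line the median of all probes. Medians run from -0.27 for epidermis to 0.15 for lens, and krt12.6 lies outside the axis at -2.50.

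The smallest p of all belonged to probes without a gene symbol, which were singled out after their values were seen. The probe of LOC100491569, a placeholder name, read -5.16, -5.12, -5.29 and -5.33 on the S1 arrays and -4.31, -3.71, -3.72 and -3.84 on the S2 arrays, with controls at -4.96 ± 0.27. The S1 arrays lay at the low end of the controls, and every S2 array lay above both. Its difference was 1.33 (95% interval 1.00 to 1.66) (adjusted p = 0.183). Without S2-1 it passed, at 1.47 (adjusted p = 0.0252), as the single probe that did under any setting. Under the 2 normexp corrections it stood at -0.30 and 0.08, so its size and direction depended on the processing. As for nim1k, which change of the processing moved it was not tested. A probe that matched no gene entry read -1.66, -1.59, -1.82 and -1.71 in S1 and -2.65, -2.72, -3.22 and -2.85 in S2, with controls at -0.57 ± 0.25. Controls were highest and S2 lowest, with no overlap between the groups. Its difference was -1.16 (95% interval -1.47 to -0.85) (adjusted p = 0.183), between -1.23 and -0.49 over the settings tried.

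The neighbouring serine protease genes tmprss2.2 and tmprss2.13 both had negative estimates. tmprss2.13 read -0.94, -1.17, -0.51 and -0.27 in S1 and -1.68, -1.48, -1.48 and -1.37 in S2, against -1.88 ± 0.36 in controls, and the S2 arrays lay below the S1 arrays and overlapped the controls. Its difference was -0.78 (95% interval -1.21 to -0.35) (adjusted p = 0.555), and that of tmprss2.2 was -0.67 (95% interval -1.14 to -0.20) with overlapping groups. septin3, a cytoskeletal gene of neurons, gave 0.36 (95% interval 0.12 to 0.59), and kif5c, a kinesin gene, -0.29 (95% interval -0.69 to 0.11). vcan, the versican gene of the matrix, gave -0.06 (95% interval -0.31 to 0.19), and a1cf, an RNA editing cofactor gene of the liver, 0.07 (95% interval -0.22 to 0.37).

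Among the tested probes, 1 (LOC100494742) was well above background on all 4 S2 arrays and 0 of 4 S1 arrays, and 1 without a gene entry on all 4 S1 arrays and 0 of 4 S2 arrays. The filter allows no other such pattern among tested probes, and these 2 passed it only through the group where they were high, so no fold or test is given for them. Among the untested probes, 27 were well above background on 3 S2 arrays and no S1 array, and 28 on 3 S1 arrays and no S2 array.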

How the data were processed

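The authors extracted spot values with Agilent Feature Extraction 11.0.1.1, per the file headers, and deposited a background-subtracted intensity, linear in scale, for every spot. The headers give JGI 4.1 as the build of the design. The authors' deposited value table is in log2 units and equalled the quantile-normalized processed signal. Its software is not stated in the sources used here.

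From the log2 intensity, the 75th percentile of each array (43803 non-control spots) was subtracted. Outlier spots (295 over 12 arrays) were dropped, no spot was saturated, and spots of a probe were averaged. The 8 arrays were fitted with limma 3.58.1 in R 4.3.3 (lmFit and eBayes, no covariate), a script first tested on simulated data. Benjamini-Hochberg adjustment ran over all 28182 probes. Accessions were named through a RefSeq gene table of UCB_Xtro_10.0. As this is not the design's build, no coordinates or sequences are given. A gene's brightest probe stood for it. Probes named xhyb are read as able to cross-hybridise. Some genes not marked so above, such as slc51b, cxcl8, hsp30c, krt78.3, krt78.6, rps19, sec61b and slc34a2, were also read on such probes. Named genes were the 8 smallest unadjusted p on each side, each list's farthest member, any called members (up to 3 per list), and all genes described earlier. A gene that this rule takes is not reported here. For normexp (offset 50) the median signal was used, because the files given here hold no mean signal. The genes, lists and tests were chosen with earlier results of these data known. Alternatives covered scaling, background, filter, slide, brightness, array weights, prior and left-out arrays. Leaving out slide 3 was added after seeing the data. Plots used matplotlib 3.10.9 and Python 3.11.15.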

Additional observations from a re-analysis of the deposited data

Results flagged for a closer look

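In 10 of the 214 groups of 4 arrays tested over the 105 named genes and the array measures, 1 array stood apart by Dixon's test, and chance alone flags about 1 group in 20. krt12.6, a keratin gene, read 5.15 on S1-2 where the other S1 arrays lay between -4.79 and -4.70, the S2 arrays between -5.22 and -4.08 and controls at -4.52 ± 0.13 (SD, n = 4). Its difference of -2.50 (95% interval -7.08 to 2.09) rests on that array. npc1l1 read 0.29 on S1-1 against -0.57 to -0.51 on the others of its group. aqp10 read -1.79 on S2-3 against -2.10 to -2.09. hsp30c read -0.57 on S2-1 against -0.30 to -0.27. krt78.6 read 0.50 on S1-3 against 0.10 to 0.15. cyp2f1 read 5.08 on S1-2 against 5.26 to 5.29. rarb read -2.14 on S2-2 against -2.31 to -2.29. sdr42e1 read -2.10 on S2-2 against -1.88 to -1.84. smad4.1 read -4.66 on S2-4 against -4.95 to -4.91. spata45 read -1.41 on S1-1 against -1.21 to -1.19.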

How the results depend on the processing

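The count of called probes was 0 under the other settings tried, and 0 to 1 when an array was left out, the 1 being LOC100491569 without S2-1. The smallest adjusted p fell to 0.0588 with 12 arrays in the fit and 0.0913 with a trended, robust prior, and 2 probes passed at an adjusted p under 0.1 among probes well above background on all 8 arrays. The share of intervals inside 2-fold was 89.4 to 93.1% with 1 array left out and 83.6 to 99.03% under the other settings, but 58.6% (25.4% inside 1.5-fold) under normexp on the local backgrounds as measured, where the all-probe median moved to -0.14. The cause was not tested. The 2 forms of normexp also turned the sign of nim1k (-0.31 and -0.054), nat8.9 (-0.32 and -0.10) and pdx1 (-0.36 and -0.19), and the form as measured that of aqp10 (-0.10), fam131a (-0.11) and rarb (-0.16). Of the other gene values, 23 moved by more than the spread between replicates and 2354 did not. For list medians 59 moved and 769 did not. Replicate numbers correlated at 0.20, -0.01, 0.18 and 0.18 in their deviations and are not shown to pair the arrays. For S2-1, S2-3 and S2-4 the best-matching S1 array bore the same number and lay on the same slide. For S2-2 it was S1-1, which shared its slide but not its number. A replicate block gave 0 calls (smallest adjusted p = 0.480). All arrays were scanned on 1 day, so scan day was not run as a block. With 4 arrays per group, a 2-fold difference could lie undetected on 48.1% of the probes not well above background on all 8 arrays.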

Other observations

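Differences of 2-fold or more were seen on 97 probes, 30 higher and 67 lower in S2. Of these, 12 had no overlap between the groups, beside 2.06% of all probes wholly higher and 2.74% wholly lower in S2. An unadjusted p under 0.05 was met by 32, beside 7.46% of all probes. Not well above background on all 8 arrays were 41, as were 1927 of all 28182 tested probes. The 97 were picked for a large difference on these same arrays, so their counts are a description. For 42 of the 97 the log2 difference dropped under 0.5 when a single array was left out, most often S2-1 (11 probes) and S1-2 (8 probes). Of the 97, 11 belonged to genes with a symbol, as did 4498 of all 28182 tested probes.

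Outside the tested set lay 4717 probes that were well above background on fewer than 4 of the 8 arrays.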
